A study of Homo sapiens with 8 samples.

Results

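The 58 genes described here encode proteins that build ribosomes: RNA polymerase I and its initiation factors, the core proteins of small nucleolar ribonucleoproteins (snoRNPs), the processing factors of both ribosomal subunits, and multifunctional nucleolar proteins. They were taken by symbol from a list of ribosome biogenesis and nucleolar factors that holds no ribosomal protein. The rule for taking them used no measured value, but the list was chosen with earlier results of these data known. All 58 were found among the 61125 genes of the deposited count table, and all 58 were among the 14995 genes with enough counts to be tested. mRNA was measured in U-937, a human pro-monocytic cell line of myeloid origin, after 72 h of treatment, in 8 libraries of 4 groups with 2 libraries each. The vehicle group received PBS and DMSO, the LAA group 250 µM L-ascorbic acid (vitamin C), the ATRA group 1 µM all-trans retinoic acid (a vitamin A derivative that drives myeloid differentiation), and the LAA+ATRA group both agents. The labels do not say whether a single agent was given together with the solvent of the other, and all groups were cells of the same line, with no genetic change named. Nor do they say whether the 2 libraries of a group are separate cultures. Every p-value here therefore reflects how far these particular libraries differ, and that variation may be technical.

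Ribosomes are made in the nucleolus. RNA polymerase I transcribes a long precursor ribosomal RNA, which snoRNPs modify at many sites, and the small-subunit processome and the large-subunit assembly factors then cut, fold and dress it with ribosomal proteins before the subunits are exported. The pathway is most active in growing cells, and many of its genes are textbook targets of the transcription factor MYC. Poly-T beads selected the RNA, so the measurements are of the messenger RNAs of these factors and not of ribosomal RNA.

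The 8 libraries held between 18462432 and 24166618 estimated counts. Counts are given as CPM (counts scaled to library depth) after TMM scaling between libraries, and levels are compared between genes only on the authors' FPKM scale, which is per kilobase. In log2 units, the median difference between the 2 libraries of a group across the 58 genes, without sign, was 0.075 in vehicle, 0.079 in LAA, 0.142 in ATRA and 0.121 in LAA+ATRA. The myeloid identity of the cells was checked with 10 markers, whose summed level was 4872 to 5143 CPM in vehicle, 5268 to 5509 in LAA, 11237 to 12122 in ATRA and 11920 to 13171 in LAA+ATRA, although MPO stayed under 1 CPM. The summed level of 4 T cell markers was at most 1.01 CPM and that of 3 erythroid markers at most 0.097 CPM, and 4 epithelial and stromal markers summed to at most 1.10 CPM. Markers of B cells summed to 15.5 to 18.5 CPM in vehicle and 9.45 to 10.8 in LAA+ATRA, with MS4A1 at 0, and the endothelial list was carried by PECAM1, at 56.9 to 61.3 CPM without ATRA and 92.7 to 110 CPM with it. The part of these marker levels in the results was not tested. In bulk RNA, fewer cells of a type and less RNA per cell cannot be told apart.

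MYC binds the E-box CACGTG together with its partner MAX, and the start regions of these genes were searched for those letters, which read the same on both strands. RefSeq promoter sequences (GRCh38.p14, 250 bases before to 50 after each start) matched 49 of the 58 genes, and BOP1, DDX18, NOLC1, NOP58, POLR1E, RRP12, RRP1B, RRS1 and TCOF1 had no entry. The letters occurred in 23 of the 49 genes (46.9%), against 12.7% of the 10378 tested genes with an entry, 8.77% of all 27305 genes of the table, and 27.8% of 90 other ribosome biogenesis genes. A gene was counted if any of its listed starts held the letters, and 24.5% of the 49 genes and 28.5% of the tested genes had more than 1 start. In 21 of the 23 genes an E-box lay within 50 bases of a start, and in 15 it lay at or after the start. A match in letters is a description and does not show that a factor binds there. The windows below are 7 of the 26 found, from genes whose levels are described in detail, each with 12 bases on either side and the E-box in capitals. FBL (chr19:39846356-39846385, minus strand) and GNL3 (chr3:52686026-52686055, plus strand) hold it 6 bases after a start. DDX21 (chr10:68956604-68956633, plus strand) holds it 31 bases before a start, LYAR (chr4:4290068-4290097, minus strand) 64 bases before and EBNA1BP2 (chr1:43172790-43172819, minus strand) 237 bases before. EBNA1BP2 holds another at chr1:43172241-43172260, 42 bases after its other listed start, so the 2 genes with none within 50 bases are LYAR and UTP14A. NOP10, which alone of the 58 genes was higher with ATRA, holds 2 E-boxes on the minus strand, at chr15:34343289-34343318 and chr15:34343130-34343159, which lie 170 and 11 bases before its start.
FBL: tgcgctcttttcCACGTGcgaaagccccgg
GNL3: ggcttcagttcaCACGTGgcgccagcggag
DDX21: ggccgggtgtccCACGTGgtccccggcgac
LYAR: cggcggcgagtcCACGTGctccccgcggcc
EBNA1BP2: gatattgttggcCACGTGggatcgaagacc
NOP10 farther: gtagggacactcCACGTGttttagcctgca
NOP10 nearer: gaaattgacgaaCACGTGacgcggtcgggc
The letters were found in 20 of the 40 genes with an entry that were called lower with ATRA and in 3 of the other 9.

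In vehicle cells the 58 genes spanned a wide range of levels per length. Nucleophosmin, NPM1, a histone and ribosome chaperone of the nucleolus, was highest at 1394 ± 61.9 FPKM (SD, n = 2). Fibrillarin, FBL, was at 561 ± 35.4 FPKM, nucleolin, NCL, at 434 ± 14.6 FPKM and the small snoRNP protein NOP10 at 339 ± 0.489 FPKM. Their intervals of 1 SD did not overlap. UTP20, a very long scaffold of the processome, was lowest at 2.83 ± 0.0803 FPKM. The median gene stood at 40.3 FPKM, 11 genes were above 100 FPKM, and 3 (POLR1A, UTP15 and UTP20) were below 10 FPKM.

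As a share of all estimated counts, the 58 genes took 0.839% and 0.867% in the 2 vehicle libraries, 0.936% and 0.954% in LAA, 0.468% and 0.498% in ATRA, and 0.502% and 0.541% in LAA+ATRA. All 4 libraries with ATRA lay below all 4 without it, and the LAA libraries lay above the vehicle libraries. NPM1 and NCL together held between 25.9% and 30.4% of the counts of the 58 genes in every library.

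**Figure D1:**
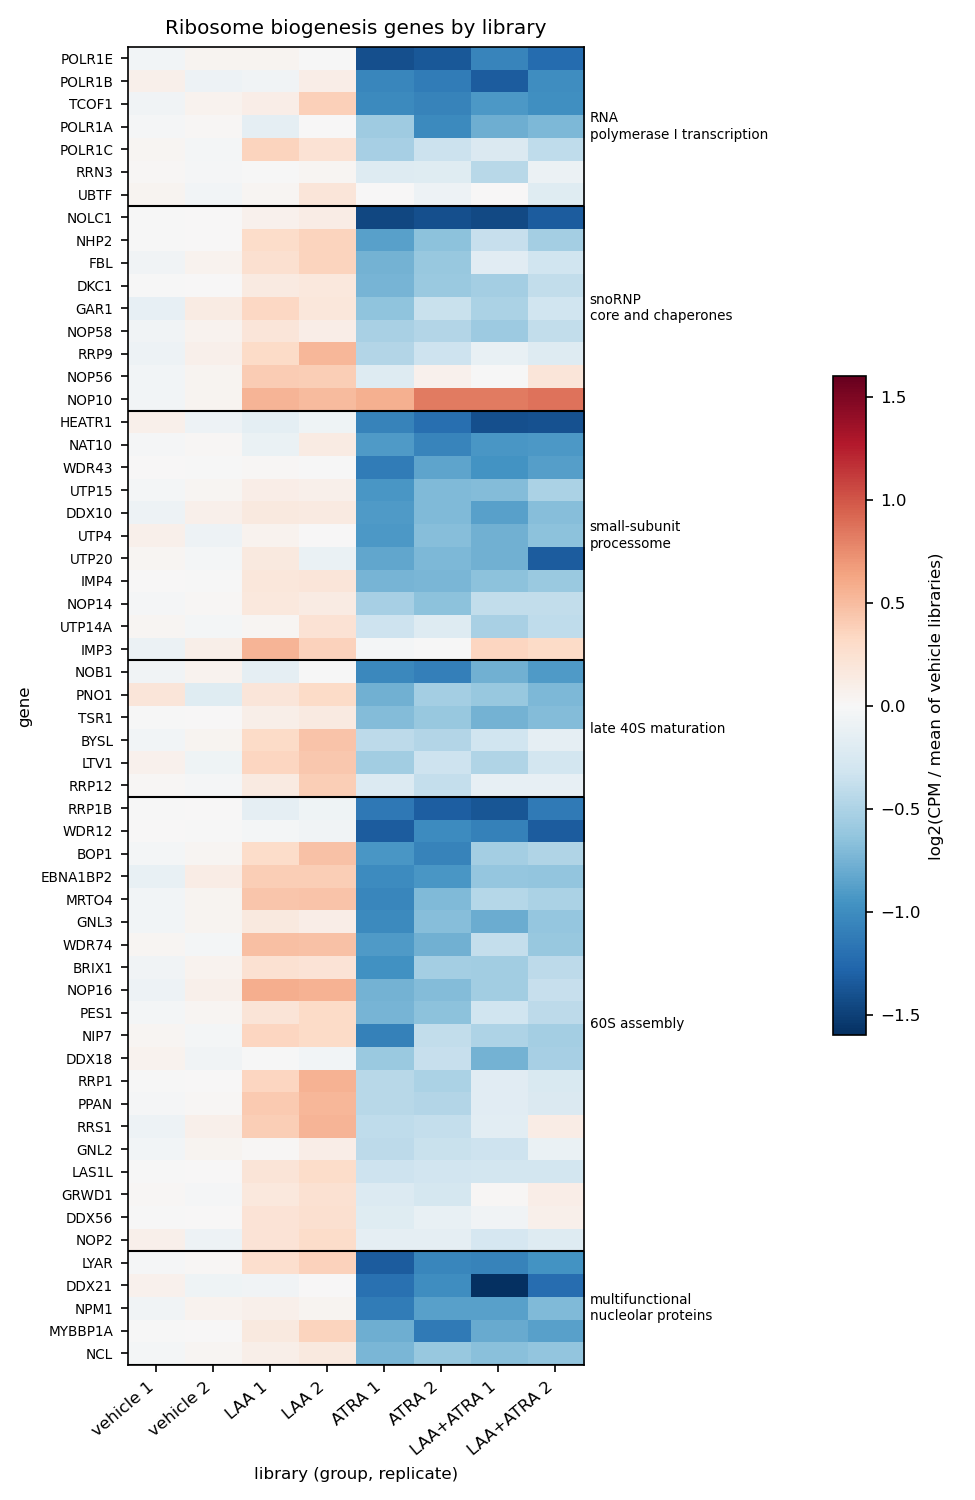
Heat map of the 58 genes (rows, grouped by role and ordered within a role by the ATRA change) in the 8 libraries (columns), coloured by log2 of CPM over the mean of the 2 vehicle libraries. The 4 columns with ATRA are blue for nearly all genes, NOP10 is red in all 6 treated libraries, and many rows are pale red in the 2 LAA columns.

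The first comparison asks what ATRA alone did to the pathway. With ATRA, 49 of the 58 genes fell, 1 rose and 8 did not pass the test (edgeR's quasi-likelihood test, Benjamini-Hochberg adjusted p under 0.05 over all genes tested). Over all genes tested, 21.0% were called lower and 21.9% higher. The median log2 fold change of the 58 genes was -0.69, against -0.00 over all genes tested, and single genes ranged from -1.43 for NOLC1 to 0.71 for NOP10. In 54 of the 58 both ATRA libraries lay below both vehicle libraries, which was so for 35.9% of all genes tested. Of the 49 lower genes, 10 were at least 2-fold lower, and 13 had a log2 fold change nearer to 0 than -0.5. Of the 50 genes called, 34 were called under all 18 settings of the analysis. LAA+ATRA was compared with the same vehicle libraries, so its values are set beside those of ATRA below and are no independent repeat. In that comparison 42 genes fell and 2 rose (background 21.5% lower and 23.1% higher), with a median log2 fold change of -0.49. LAA+ATRA against LAA, which uses no vehicle library, had 50 genes lower and 1 higher (background 18.0% and 18.4%), with a median of -0.75.

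**Figure D2:**
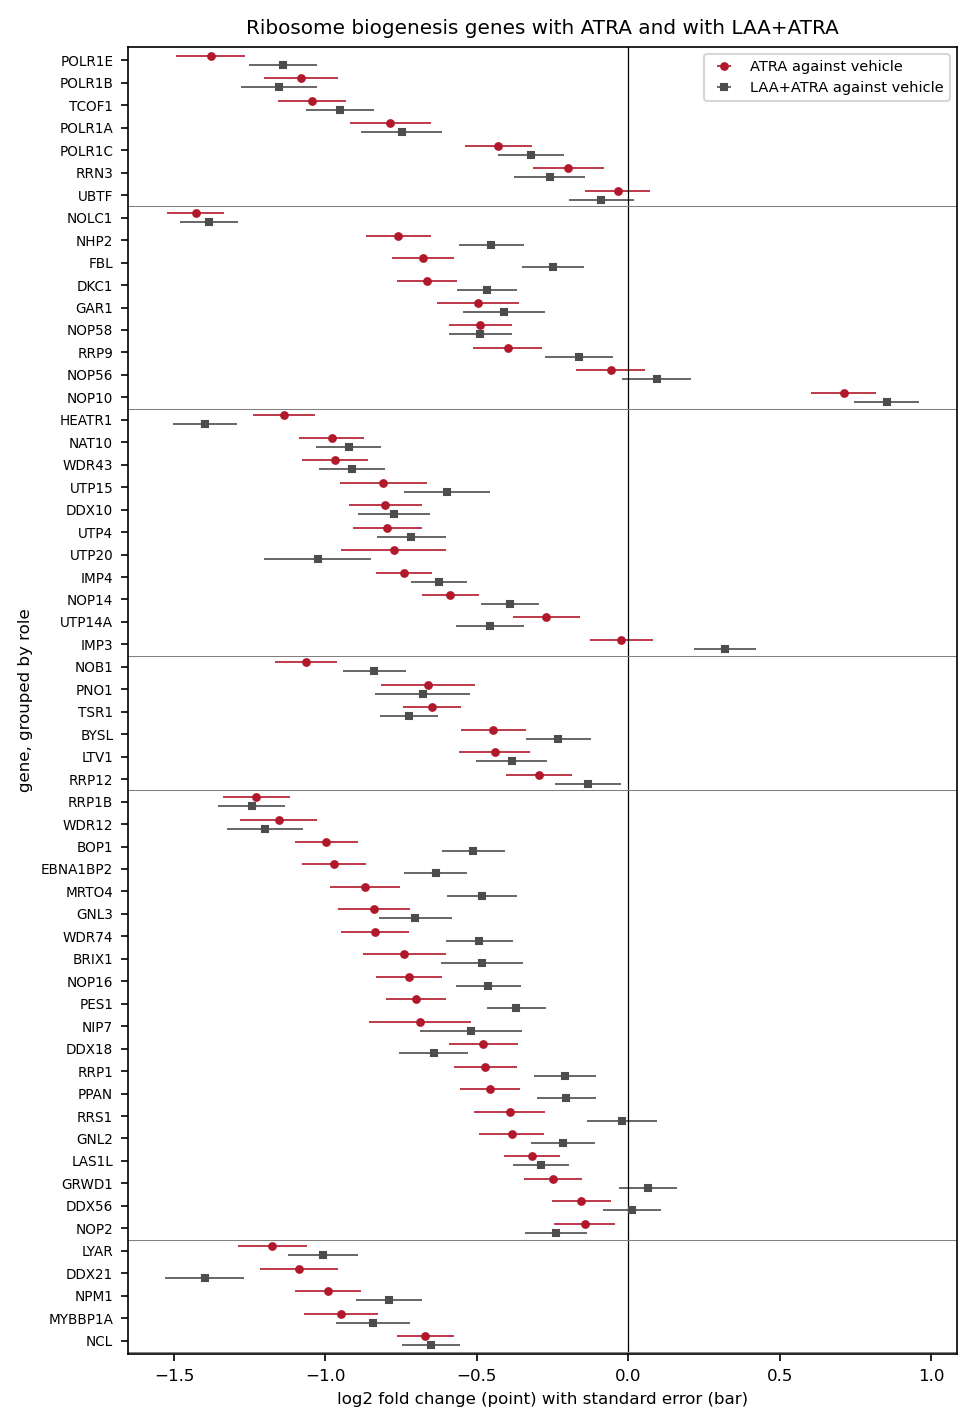
Log2 fold change (points) with its standard error (bars) of each of the 58 genes, grouped by role, for ATRA against vehicle (red circles) and LAA+ATRA against vehicle (grey squares). Most points lie left of 0, from -1.43 for NOLC1 with ATRA, while both points of NOP10 lie right of 0, at 0.71 and 0.85.

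RNA polymerase I makes the ribosomal RNA precursor, and 5 of its 7 listed genes fell with ATRA (median -0.79). For the counts of this and each further role, the background was 21.0% called lower with ATRA and 21.5% with LAA+ATRA. POLR1E, a subunit particular to this polymerase, had 42.5 and 45.2 CPM in vehicle, 45.2 and 43.5 in LAA, 16.5 and 17.1 in ATRA, and 21.1 and 18.7 in LAA+ATRA. The ATRA libraries were lowest and did not overlap any other group, and the change was 2.60-fold (log2 fold change -1.38 ± 0.11 SE, edgeR adjusted p = 1.59e-06). The second largest subunit POLR1B (-1.08 ± 0.12) and TCOF1, the nucleolar factor treacle (-1.04 ± 0.11), fell about as far, and the largest subunit POLR1A fell by 0.79 on the log2 scale. POLR1C, a subunit shared with RNA polymerase III, had 59.97 and 57.3 CPM in vehicle, 74.9 and 68.6 in LAA, 40.7 and 46.3 in ATRA, and 49.8 and 44.1 in LAA+ATRA. Its fall with ATRA (-0.43 ± 0.11, edgeR adjusted p = 0.00728) lost its call without vehicle replicate 1 (adjusted p = 0.066) or without ATRA replicate 1 (adjusted p = 0.055), and that with LAA+ATRA (-0.32 ± 0.11) without vehicle replicate 1, vehicle replicate 2 or LAA+ATRA replicate 2.

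Among these 7 genes, the 2 that help load the polymerase on its promoter did not pass the test. UBTF, which binds the ribosomal DNA, had 147 and 138 CPM in vehicle, 145 and 162 in LAA, 143 and 135 in ATRA, and 143 and 124 in LAA+ATRA. The vehicle and ATRA libraries overlapped, with a log2 fold change of -0.04 ± 0.11 for ATRA (edgeR adjusted p = 0.819). RRN3, which links the polymerase to its promoter-bound factors, had -0.20 ± 0.12 (adjusted p = 0.199), and its counts could be shared with pseudogene copies. With LAA+ATRA 5 of the 7 were called lower (median -0.75).

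Among the 9 snoRNP proteins, which carry out methylation and pseudouridylation of ribosomal RNA, 7 fell with ATRA and 1 rose (median -0.50). NOLC1, the chaperone Nopp140 that shuttles snoRNPs into the nucleolus, had the lowest fold change of all 58 genes. Its libraries held 332 and 336 CPM in vehicle, 349 and 362 in LAA, 122 and 126 in ATRA, and 123 and 133 in LAA+ATRA. The 4 libraries with ATRA lay close together and far below the others, a 2.69-fold fall with ATRA (-1.43 ± 0.095, edgeR adjusted p = 2.47e-07).

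FBL, the methyltransferase of box C/D snoRNPs, had 325 and 353 CPM in vehicle, 403 and 433 in LAA, 201 and 223 in ATRA, and 298 and 273 in LAA+ATRA. No 2 of the 4 groups overlapped. The fall with ATRA was -0.68 ± 0.10 (edgeR adjusted p = 0.000206), and that with LAA+ATRA was -0.25 ± 0.10, which did not pass the test (adjusted p = 0.0644) but did so with DESeq2 (adjusted p = 0.030), with limma on the FPKM values with the low-value filter (but not without it), with the length and GC offsets, and without either ATRA library. Its partners behaved unevenly with ATRA: NOP58 fell (-0.49 ± 0.10), and NOP56, the other paralogous scaffold of the same particle, stood at -0.06 ± 0.11 (adjusted p = 0.714). NOP56 hosts several snoRNA genes within its introns, and 13 of the 58 genes share exon sequence with another annotated gene of the same strand. RRP9, specific to the U3 snoRNP that guides processome assembly, fell with ATRA (-0.40 ± 0.11) and had -0.16 ± 0.11 with LAA+ATRA (adjusted p = 0.266).

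Box H/ACA snoRNPs hold 4 proteins, which are also found in telomerase, and these split. The pseudouridine synthase DKC1 fell with ATRA (-0.66 ± 0.099), as did NHP2 (-0.76 ± 0.11) and GAR1 (-0.50 ± 0.14). NOP10, which bridges DKC1 and NHP2 in the same particle, had 75.6 and 79.7 CPM in vehicle, 113 and 111 in LAA, 116 and 139 in ATRA, and 138 and 142 in LAA+ATRA. Its vehicle libraries were the lowest of all 8, and every treated library lay above them. The rise was 1.64-fold with ATRA (0.71 ± 0.11, edgeR adjusted p = 0.000203) and 1.81-fold with LAA+ATRA (0.85 ± 0.11, adjusted p = 5.3e-05). Against LAA, the rise with LAA+ATRA was 0.33 ± 0.11 (adjusted p = 0.0306). That last call was lost when any 1 of the vehicle, LAA or LAA+ATRA libraries was left out (adjusted p = 0.059 to 0.162) and with offsets for length and GC content of the transcripts (0.09, adjusted p = 0.492). It was also lost with limma on the FPKM values, with or without the low-value filter (limma adjusted p = 0.131 to 0.254), and held in 8 of the 18 settings. Of the 58 genes NOP10 had the shortest longest transcript, 554 bases.

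**Figure D3:**
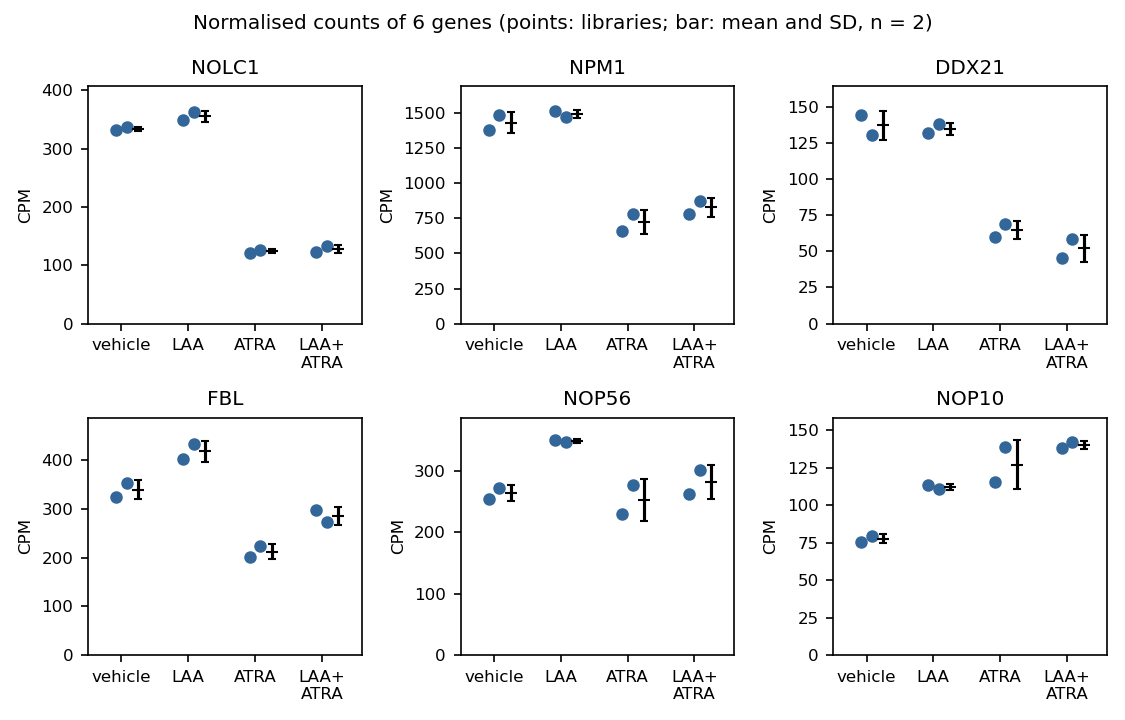
CPM of 6 genes in the 4 groups, with a point for each library and a bar for the mean and SD (n = 2), each axis starting at 0. NOLC1, NPM1 and DDX21 sit lower in the 4 libraries with ATRA, FBL sits in 4 separate groups, NOP56 overlaps between vehicle and ATRA, and NOP10 sits higher in all treated libraries.

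The small-subunit processome assembles on the nascent precursor and makes its first cuts, and 9 of its 11 listed genes fell with ATRA (median -0.80). HEATR1, a scaffold that also links processing to transcription, had 130 and 117 CPM in vehicle, 111 and 118 in LAA, 58.9 and 53.6 in ATRA, and 46.6 and 47.2 in LAA+ATRA. The libraries with ATRA were all under those without it, with a 2.20-fold fall with ATRA (-1.14 ± 0.10, edgeR adjusted p = 3.57e-06) and a 2.64-fold fall with LAA+ATRA (-1.40 ± 0.10). Its partners in the early-binding subcomplex, WDR43 (-0.97 ± 0.11) and UTP15 (-0.81 ± 0.14), and the RNA acetyltransferase NAT10 (-0.98 ± 0.11) also fell with ATRA.

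IMP3 and IMP4 sit side by side in the complex that joins U3 to the precursor, and they differed. IMP4 had 113 CPM in both vehicle libraries, 128 and 129 in LAA, 67.5 and 67.7 in ATRA, and 71.6 and 74.8 in LAA+ATRA. Replicates were nearly equal in CPM and the fall with ATRA was -0.74 ± 0.093 (edgeR adjusted p = 4.85e-05). That call was lost with limma on unfiltered FPKM (-0.49, limma adjusted p = 0.084). On the FPKM scale the LAA+ATRA libraries of IMP4 stood apart, at 61.9 and 44.7. IMP3 had 149 and 171 CPM in vehicle, 233 and 206 in LAA, 156 and 158 in ATRA, and 203 and 197 in LAA+ATRA. Its ATRA libraries lay between the vehicle libraries (-0.02 ± 0.10, adjusted p = 0.876), and both groups with LAA lay above both groups without it. With LAA+ATRA it was called higher than vehicle (0.32 ± 0.10, adjusted p = 0.0249), a call lost without vehicle replicate 1 (adjusted p = 0.256), without LAA+ATRA replicate 1 (adjusted p = 0.082), with unfiltered FPKM, and with the length and GC offsets (0.04, adjusted p = 0.719). UTP14A, a helicase cofactor of the processome, missed the threshold with ATRA (-0.27 ± 0.11, adjusted p = 0.0674) and was called lower with LAA+ATRA (-0.46 ± 0.11, adjusted p = 0.00543). With IMP3 as the exception, the listed processome genes were called lower with LAA+ATRA (10 of 11).

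All 6 factors of late 40S maturation fell with ATRA (median -0.55). NOB1, the endonuclease that makes the final cut in the small-subunit RNA, had 103 and 112 CPM in vehicle, 97.6 and 107 in LAA, 52.4 and 50.4 in ATRA, and 62.8 and 57.5 in LAA+ATRA. The ATRA libraries were the lowest, 2.09-fold below vehicle (-1.06 ± 0.10, edgeR adjusted p = 6.14e-06). BYSL, bystin, a factor of the maturing 40S particle, had 46.8 and 49.9 CPM in vehicle, 59.8 and 66.1 in LAA, 36.2 and 34.8 in ATRA, and 38.6 and 43.7 in LAA+ATRA. It fell with ATRA (-0.45 ± 0.11, adjusted p = 0.00536), a call lost without vehicle replicate 2 (adjusted p = 0.056), and with LAA+ATRA it had -0.23 ± 0.11 (adjusted p = 0.101). RRP12, an export factor, had 76.0 and 74.4 CPM in vehicle, 83.0 and 98.5 in LAA, 64.7 and 57.99 in ATRA, and 68.7 and 68.5 in LAA+ATRA. Its fall with ATRA was the smallest in the group (-0.30 ± 0.11, adjusted p = 0.0463), and 6 of the 8 fits without 1 library lost it. On the authors' FPKM scale it stood at -0.02 with ATRA (limma adjusted p = 0.918) and was higher with LAA+ATRA (0.28, limma adjusted p = 0.049, and 0.056 without the low-value filter). With the length and GC offsets on the counts it was lower with LAA+ATRA (-0.22, edgeR adjusted p = 0.046).

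The 60S assembly factors are the largest group, and 17 of the 20 fell with ATRA (median -0.69, background 21.0% lower). In all 20 both ATRA libraries lay under both vehicle libraries, which was so for 35.9% of all genes tested. RRP1B, a nucleolar factor of large-subunit processing, had 173 and 175 CPM in vehicle, 157 and 166 in LAA, 78.5 and 69.8 in ATRA, and 67.2 and 79.4 in LAA+ATRA, a 2.34-fold fall with ATRA (-1.23 ± 0.11, edgeR adjusted p = 3.33e-06). Its paralog RRP1 fell less (-0.47 ± 0.10, adjusted p = 0.0029). BOP1, PES1 and WDR12 form a complex that processes the large-subunit RNA, and all 3 fell, by 1.00, 0.70 and 1.15 on the log2 scale with standard errors of 0.10, 0.098 and 0.13.

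EBNA1BP2, a scaffold of early large-subunit particles, had 125 and 147 CPM in vehicle, 177 and 178 in LAA, 67.6 and 71.2 in ATRA, and 87.9 and 87.1 in LAA+ATRA. No 2 groups overlapped, and the fall was -0.97 ± 0.11 with ATRA (edgeR adjusted p = 1.57e-05) and -0.64 ± 0.10 with LAA+ATRA. GNL3, the nucleolar GTPase nucleostemin, had 182 and 192 CPM in vehicle, 210 and 202 in LAA, 92.8 and 117 in ATRA, and 108 and 123 in LAA+ATRA. Here the ATRA and LAA+ATRA libraries overlapped, both far below the rest (-0.84 ± 0.12 with ATRA). NOP2, a methyltransferase of the large-subunit RNA, had 51.0 and 45.4 CPM in vehicle, 56.1 and 59.2 in LAA, 43.7 and 43.5 in ATRA, and 39.9 and 41.8 in LAA+ATRA. It missed the threshold with ATRA (-0.14 ± 0.10, adjusted p = 0.277) but was lower in LAA+ATRA against LAA (-0.50 ± 0.10, adjusted p = 0.00238). The helicase DDX56 (-0.16 ± 0.097) and the histone-binding factor GRWD1 (-0.25 ± 0.096, adjusted p = 0.0527) were the other 60S genes not called with ATRA.

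The 5 multifunctional nucleolar proteins all fell, with the lowest median of the 6 roles (-0.99). NPM1 had 1383 and 1488 CPM in vehicle, 1517 and 1474 in LAA, 661 and 782 in ATRA, and 783 and 876 in LAA+ATRA. The groups with and without ATRA were far apart, a 1.99-fold fall with ATRA (-0.99 ± 0.11, edgeR adjusted p = 1.82e-05). Pseudogene copies of NPM1 exist, and how the authors' counting split their reads is not given in the sources used here. NCL had 959 and 1009 CPM in vehicle, 1047 and 1096 in LAA, 590 and 647 in ATRA, and 619 and 634 in LAA+ATRA (-0.67 ± 0.096 with ATRA). LYAR, a zinc-finger nucleolar protein of growing cells, had 82.8 and 84.8 CPM in vehicle, 101 and 108 in LAA, 33.3 and 40.8 in ATRA, and 40.04 and 43.2 in LAA+ATRA, and had the largest fall of this group with ATRA (-1.18 ± 0.11, adjusted p = 6.31e-06). The RNA helicase DDX21, chosen for library values after they were seen, had 144 and 130 CPM in vehicle, 132 and 138 in LAA, 60.1 and 68.9 in ATRA, and 45.4 and 58.6 in LAA+ATRA, where its fold change against vehicle was, with that of HEATR1, the lowest of the 58 genes (-1.40 ± 0.13).

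With LAA+ATRA, 14 genes were not called against vehicle. They were UBTF, RRN3, NOP56, NOP2, DDX56 and GRWD1, and also FBL, RRP9, BYSL, RRP12, RRP1, RRS1, PPAN and GNL2. The last of these, the GTPase GNL2, depended on the scale: from CPM its log2 ratio of group means was -0.39 with ATRA and -0.22 with LAA+ATRA, and from the authors' FPKM it was 0.09 and 0.31. The helicase DDX10 was likewise -0.77 from CPM and 0.00 from FPKM with LAA+ATRA. Ratios from the 2 scales differed by more than 0.3 for 3 of the 58 genes with ATRA and for 7 with LAA+ATRA.

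LAA alone moved none of the 58 genes past the threshold against vehicle (edgeR's quasi-likelihood test, background 0.0267% called in either direction). The smallest adjusted p was 0.0509, just outside 0.05. At an unadjusted p under 0.05, 25 of the 58 were higher (background 10.0%) and none lower (background 8.88%). In 40 of the 58 both LAA libraries lay above both vehicle libraries (background 28.6%). The estimate was positive for 51 and negative for 7, with a median log2 fold change of 0.22 against 0.01 over all genes tested and a median standard error of 0.108. The count of 0 sits at the edge of the test. None of the 58 was called either with RLE in place of TMM scaling, with the replicates as a block, with limma on the FPKM values, or with the length and GC offsets. Other settings called more of these genes and also more of all genes. DESeq2 called 13 of the 58 higher (3.68% of all genes called higher), edgeR without the low-count filter 12 (2.10%), and edgeR on the vehicle and LAA libraries alone 24 (8.59%). Leaving out ATRA replicate 1, ATRA replicate 2, LAA+ATRA replicate 1 or LAA+ATRA replicate 2, which are not part of the comparison but share its estimate of the spread, gave 8, 8, 5 and 7 calls (1.81%, 1.73%, 1.18% and 1.53% of all genes called higher).

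The 6 genes with the smallest adjusted p were NOP16, PPAN, NOP10, IMP3, RRP1 and WDR74, with adjusted p between 0.0509 and 0.0612. NOP16, a 60S factor known as a MYC target, had 45.6 and 51.0 CPM in vehicle, 71.9 and 70.8 in LAA, 28.5 and 29.9 in ATRA, and 32.8 and 37.3 in LAA+ATRA. Its LAA libraries were the highest of the 8, at 1.48-fold over vehicle (0.56 ± 0.11, edgeR adjusted p = 0.0509). PPAN, a 60S factor, had 49.6 and 50.8 CPM in vehicle, 67.1 and 72.6 in LAA, 36.8 and 36.4 in ATRA, and 44.2 and 42.9 in LAA+ATRA (0.48 ± 0.096 for LAA). PPAN shares its exons with an annotated read-through gene, PPAN-P2RY11, which held 68 and 181 estimated counts in vehicle and 20 and 50 in LAA, against 1031 and 1048 and then 1352 and 1382 for PPAN. RRP1 had 71.0 and 71.8 CPM in vehicle, 90.3 and 105 in LAA, 52.7 and 50.2 in ATRA, and 63.1 and 60.5 in LAA+ATRA (0.45 ± 0.10 for LAA). WDR74, a 60S remodelling factor, had 46.3 and 44.5 CPM in vehicle, 63.2 and 62.9 in LAA, 24.1 and 26.6 in ATRA, and 34.9 and 29.7 in LAA+ATRA (0.47 ± 0.11 for LAA). Each of the 4 had its LAA libraries above, and its ATRA libraries below, all other libraries. By role, the median estimate for LAA was 0.30 for snoRNP proteins, 0.26 for 60S assembly, 0.25 for late 40S maturation, 0.12 for the multifunctional proteins, 0.09 for the processome and 0.02 for RNA polymerase I transcription.

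LAA was also added to ATRA, and this comparison shares no library with that of LAA and vehicle. None of the 58 genes was called (background 1.01% in either direction), with a smallest edgeR adjusted p of 0.0508. At an unadjusted p under 0.05, 14 were higher (background 9.16%) and 2 lower (background 9.40%), and in 27 both LAA+ATRA libraries lay above both ATRA libraries (background 21.2%). The estimate was positive for 45 and the median was 0.14, against 0.00 over all genes tested. Without ATRA replicate 1 the median was 0.08 with 37 positive. DESeq2 called 6 higher (3.01% of all genes called higher), and with no filter on low counts edgeR called 3 (1.82%). BOP1 had 152 and 159 CPM in vehicle, 190 and 215 in LAA, 81.7 and 73.8 in ATRA, and 106 and 111 in LAA+ATRA. It had the highest estimate for LAA on top of ATRA (0.49 ± 0.10, adjusted p = 0.0508), and no 2 of its groups overlapped. PES1, its partner, had 131 and 137 CPM in vehicle, 154 and 166 in LAA, 80.0 and 84.6 in ATRA, and 107 and 100 in LAA+ATRA (0.33 ± 0.098). MRTO4, a nuclear stand-in for a ribosomal stalk protein, had 130 and 140 CPM in vehicle, 183 and 184 in LAA, 65.3 and 82.4 in ATRA, and 98.0 and 95.1 in LAA+ATRA (0.39 ± 0.12). Its call was gained without ATRA replicate 2 (adjusted p = 0.046). GRWD1 had 89.1 and 86.8 CPM in vehicle, 99.2 and 104 in LAA, 75.7 and 72.4 in ATRA, and 89.2 and 94.6 in LAA+ATRA, with 0.31 ± 0.096 against ATRA and 0.06 ± 0.095 against vehicle. FBL (0.43 ± 0.10) and IMP3 (0.34 ± 0.10), whose libraries are given above, completed the 6 genes with the smallest adjusted p. At the low end, DDX21 (-0.31 ± 0.13) and HEATR1 (-0.26 ± 0.10) were the 2 genes lower at an unadjusted p under 0.05.

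**Figure D4:**
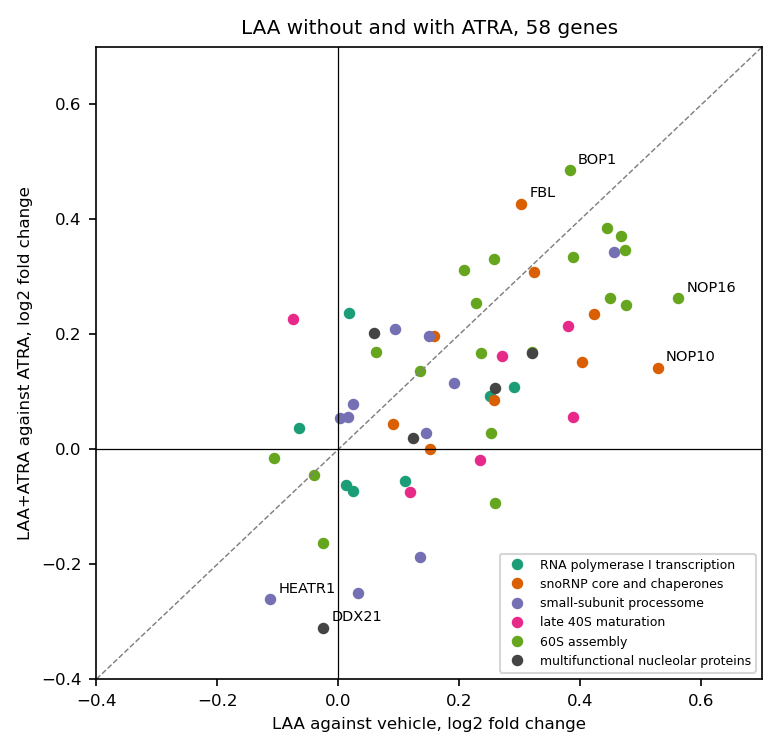
Log2 fold change of the 58 genes for LAA against vehicle (x axis) and LAA+ATRA against ATRA (y axis), coloured by role, with the dashed line of equal values. Most points lie in the upper right, with NOP16 farthest right at 0.56 and BOP1 highest at 0.49, while HEATR1 and DDX21 lie lower left.

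The LAA estimate was positive both without and with ATRA for 43 genes and negative in both for 5 (HEATR1, WDR12, RRP1B, DDX18 and DDX21). Across the 58 genes the estimates of these 2 comparisons had Pearson's r of 0.635 and Spearman's rho of 0.634, as a description, since genes of the same libraries are not independent. Neither these counts nor these correlations were computed over all genes tested. Whether they are particular to the 58 genes was therefore not tested. The interaction, which asks whether LAA acted differently with ATRA, was called for none of the 58 (background 0.00667%), with a smallest edgeR adjusted p of 0.961 and a median of -0.11 (median standard error 0.154). Without ATRA replicate 2 that median was -0.04, and without LAA replicate 2 it was -0.06. The interaction was lower at an unadjusted p under 0.05 for NOP10 (-0.39 ± 0.15, edgeR adjusted p = 0.961) and NOP2 (-0.35 ± 0.14, edgeR adjusted p = 0.986), and higher for none. Over all genes tested, 4.98% had an unadjusted p under 0.05 in either direction. DESeq2 called none of the 58.

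Transcript length and GC content moved with the LAA estimates. Across the 58 genes, Spearman's rho between the length of the longest GENCODE 29 transcript and the estimate was -0.63 for LAA against vehicle and -0.61 for LAA+ATRA against ATRA, and over 14725 tested genes it was -0.39 and -0.34. For GC content rho was 0.55 and 0.54 across the 58 genes and 0.27 and 0.25 over the tested genes. The 27 genes of at most 2500 bases had a median LAA estimate of 0.32 without ATRA and 0.23 with it, and the 31 longer genes had 0.12 and 0.04. For ATRA against vehicle rho across the 58 genes was -0.15 for length and 0.27 for GC content, and the medians of shorter and longer genes were -0.68 and -0.70. For LAA+ATRA against vehicle rho was -0.39 for length and 0.49 for GC content, with medians of -0.46 and -0.65. Over the tested genes these rho were -0.095 and 0.12 with ATRA, and -0.25 and 0.23 with LAA+ATRA. With offsets for length and GC content the median LAA estimate was 0.21 without ATRA, with 55 of the 58 positive, and 0.15 with it, with 51 positive, and again none of the 58 was called. The median over all genes in that fit was 0.024 without ATRA and 0.026 with it, against 0.009 and 0.004 in the reported fit. The median of the 58 less that of all genes went from 0.208 to 0.184 without ATRA, and from 0.135 to 0.124 with it.

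**Figure D5:**
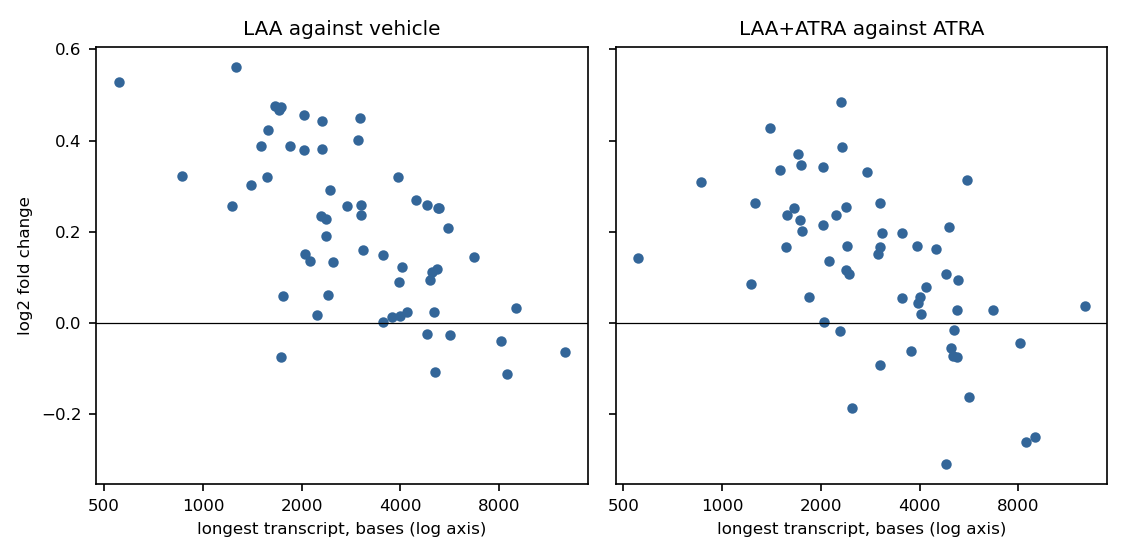
Log2 fold change of the 58 genes (y axis) against the length of the longest annotated transcript in bases (x axis, log scale), for LAA against vehicle (left) and LAA+ATRA against ATRA (right). In both panels the estimates fall from short to long genes, with Spearman's rho of -0.63 and -0.61.

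Other genes of the pathway were taken from lists that hold none of the 58. Of 105 other ribosome biogenesis genes, 56 were lower and 5 higher with ATRA (median -0.37, background 21.0% lower and 21.9% higher). The share lower was smaller than among the 58, which was not tested as a difference. The same background applies to the ATRA counts of each list below. The 42 other processome and 40S factors had 20 lower and 3 higher, led by the scaffold WDR3 (-1.09 ± 0.11) and METTL5 (-0.93 ± 0.10), a methyltransferase of small-subunit RNA. The 45 other 60S factors had 23 lower and 2 higher, led by NLE1 (-1.47 ± 0.13) and NOC3L (-1.25 ± 0.15). Among 10 snoRNP assembly factors, 9 fell and none rose, led by the ATPase RUVBL1 (-1.23 ± 0.12) and NUFIP1 (-0.99 ± 0.12). The 8 other RNA polymerase I genes had 4 lower, led by POLR1G (-1.19 ± 0.15) and POLR1F (-0.58 ± 0.11). With LAA alone the median of the 105 was 0.09, against 0.01 over all genes tested. At an unadjusted p under 0.05, 26 were higher (background 10.0%) and none lower (background 8.88%).

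The subunits of the other nuclear polymerases were called in both directions, as were all genes tested (background 21.0% lower and 21.9% higher with ATRA). A difference from the RNA polymerase I genes was not tested. Of 7 RNA polymerase II subunits, 2 were lower and 1 higher with ATRA (median 0.00), with POLR2I at -0.75 ± 0.12 and POLR2G at 0.39 ± 0.13. Of 10 RNA polymerase III subunits, 4 were lower and 2 higher (median -0.13). POLR3G had 12.5 and 12.4 CPM in vehicle, 12.9 and 11.1 in LAA, 2.71 and 2.63 in ATRA, and 2.24 and 3.22 in LAA+ATRA (-2.22 ± 0.21 with ATRA), and POLR3D fell by 0.90 on the log2 scale. POLR3GL, the alternative form of POLR3G, had the highest estimate of that list (0.77 ± 0.14) and is named here after its values were seen.

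MYC itself had 390 and 361 CPM in vehicle, 340 and 387 in LAA, 75.7 and 69.9 in ATRA, and 91.9 and 84.7 in LAA+ATRA. The 4 libraries with ATRA lay far below the 4 without it, a 5.16-fold fall with ATRA (-2.37 ± 0.11, edgeR adjusted p = 1.11e-08). LAA alone gave -0.05 ± 0.10 and LAA on top of ATRA 0.28 ± 0.11, neither of which passed the test (adjusted p = 0.857 and 0.184). Its part in the levels of the 58 genes was not tested.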

How the data were processed

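Poly-T-selected RNA of 8 U-937 libraries (4 groups, 2 libraries each) was analysed from 2 deposited tables. The estimated counts per Ensembl gene were made by the authors with Salmon 1.8.0 on GRCh38 (hg38), and DESeq2 1.36.0 is also named, per the submitters' processing notes. The deposited FPKM values come from the authors too, for the same genes. What annotation release, strand setting and gene lengths they used is not given in the sources used here, and 25 of the 58 genes share exon sequence with a gene of the opposite strand, from which reads could not be told apart without strand.

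Estimated counts were rounded, filtered with filterByExpr, scaled with TMM and fitted over all 8 libraries with edgeR 4.0.16 (quasi-likelihood, 4 group means), and p-values were adjusted over the 14995 genes tested. Errors beside log2 fold changes are standard errors. Residual degrees of freedom were 4. Libraries held 18462432 to 24166618 counts, and 2 libraries per group limit precision. Alternatives were DESeq2 1.42.0, limma 3.58.1 on log2(FPKM + 1) or log2(FPKM + 0.1) with and without a minimum of 1 FPKM, RLE factors, no filter, only the libraries compared, a replicate block, each library left out and, chosen after seeing the data, offsets for transcript length and GC content. The fitting was also run on counts simulated from its own fitted model, which cannot show whether that model suits these data. Positions and lengths came from GENCODE 29, a reference that may differ from that of the authors.

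The 58 genes and all lists were chosen with earlier results of these data known. Library values are given, in each role, for the 2 genes with the highest vehicle FPKM and those with the lowest and highest ATRA change, for genes called higher with ATRA, for the 6 with the smallest adjusted p in each LAA comparison, and for MYC, with DDX21 and POLR3G added after their values were seen. In other lists the 2 with the smallest adjusted p for ATRA are named.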

Additional observations from a re-analysis of the deposited data

How the results depend on the processing

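With ATRA, LAA+ATRA and LAA+ATRA against LAA, 34 of 50, 28 of 44 and 44 of 51 called genes kept their call in all 18 settings, and no count of called genes there moved by over 1.5 times. For LAA against vehicle: members called was 0 in the reported fit, 13 with DESeq2, 12 without the low-count filter, 24 with only the libraries compared, and 0 to 8 when 1 library was left out. For LAA+ATRA against ATRA: members called was 0, then 6 with DESeq2, 3 without the filter, and 0 to 1 when 1 library was left out (1 without ATRA replicate 2). In the remaining settings both counts stayed at 0. The filter and the libraries entering the fit change how many genes are tested and how the spread is estimated.

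For ATRA against vehicle: median log2 fold change of members was -0.69, then -0.63 with length and GC offsets, -0.60 with limma on log2(FPKM + 1) with or without its filter, and -0.75 to -0.62 when 1 library was left out. The same ranges were 0.0789 to 0.199 for LAA+ATRA against ATRA: median log2 fold change of members, -0.78 to -0.69 for LAA+ATRA against LAA: median log2 fold change of members, -0.55 to -0.48 for LAA+ATRA against vehicle: median log2 fold change of members, and -0.119 to -0.0449 for interaction of LAA and ATRA: median log2 fold change of members. Of the 71 gene values recomputed in every setting, those of IMP3, UBTF and RRP12 below turned sign, none of them called in the reported fit. Other genes were not followed in this way, and the ratios of GNL2 also turned on the FPKM scale, with ATRA, where it was called lower, and with LAA+ATRA. So did the ratio of NOP56 with ATRA (-0.058 from CPM, 0.004 from FPKM). With LAA+ATRA those of PPAN (-0.21, 0.07), GRWD1 (0.06, -0.03) and DDX10, which was called lower (-0.77, 0.001), turned as well. IMP3, ATRA against vehicle was -0.02 and ranged from -0.115 to 0.0737 when 1 library was left out. UBTF, ATRA against vehicle ranged from -0.081 to 0.0116, and UBTF, LAA+ATRA against vehicle from -0.191 to 0.0104. RRP12, LAA+ATRA against vehicle was -0.13, then 0.28 with limma on log2(FPKM + 1), with or without the filter, and 0.29 on log2(FPKM + 0.1), but -0.22 and called lower with the length and GC offsets. The cause was not tested.

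Same-numbered libraries did not deviate together (correlations of -0.0727 to 0.0771), which does not meet the rule for pairing. Across the 58 genes, though, the median of replicate 1 minus replicate 2 was below 0 in all 4 groups (-0.025, -0.061, -0.081 and -0.065 on the log2 scale). With the replicate block, 48 of the 58 genes were called lower and 1 higher for ATRA against vehicle (background 20.05% and 20.91%). For LAA+ATRA against vehicle the counts were 42 and 2 (background 20.89% and 22.27%). For LAA+ATRA against LAA they were 51 and 1 (background 16.99% and 17.37%), and for the other comparisons 0. Each background is the share of all genes called in that fit. RRP12, ATRA against vehicle missed the threshold under the block (adjusted p = 0.068). The smallest adjusted p for LAA against vehicle, 0.0509, lay just past the threshold, and 2 libraries a group limit what smaller changes the test can call.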
